A study of Mus musculus with 4 samples.

Results

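Tumor necrosis factor (TNF) and the lymphotoxins are related cytokines, and the genes of this study's dorsal skin data that encode them, their receptors and the proteins bound to those receptors are described here. The 9 genes are *Tnf*, *Lta* and *Ltb* (ligands), *Tnfrsf1a*, *Tnfrsf1b* and *Ltbr* (receptors), and *Traf1*, *Traf2* and *Ripk1* (adaptors and a kinase). They were taken by gene symbol and not by a cutoff on their values, but with earlier results of these data known. All 9 were found among the 24346 symbols of each file, and all 9 were among the 15896 genes tested. The skin came from male C57BL/6 mice, aged 8 weeks when the diet began. Mice of the Cont-IMQ group were fed a high-fat, high-cholesterol diet with bile salt (NASH diet) for 3 weeks, and mice of the 7KC-IMQ group were fed the same diet with 7-ketocholesterol (7KC), an oxidized form of cholesterol. Both groups then received imiquimod (IMQ) cream, which activates Toll-like receptors and induces psoriasis-like dermatitis, for 1 day. RNA was sequenced from 2 libraries per group (replicates 1 and 2). All 4 libraries thus share the NASH diet and IMQ, and skin without IMQ is not part of the comparison. Whether a library holds 1 mouse or several is not given in the sources used here, so p-values measure only the spread between these libraries.

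TNF is made as a membrane protein by macrophages, T cells, mast cells and keratinocytes, and it is cut from the cell surface by the protease ADAM17. It binds TNFR1 (*Tnfrsf1a*), found on most cells, and TNFR2 (*Tnfrsf1b*), found mainly on leukocytes and endothelium. Lymphotoxin-α (*Lta*) is secreted by lymphocytes and also binds both TNF receptors, whereas its complex with lymphotoxin-β (*Ltb*) stays on the cell surface and binds the lymphotoxin-β receptor (*Ltbr*) of stromal and epithelial cells. TNFR1 recruits TRADD, TRAF2 and RIPK1, from which NF-κB activation or cell death can follow. TNF is a target of drugs for psoriasis.

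The 3 ligand genes lie side by side on mouse chromosome 17 (GRCm38, also called mm10) within the major histocompatibility complex. *Ltb* (ENSMUSG00000024399.5) extends from 35194439 to 35196320 on the + strand, *Tnf* (ENSMUSG00000024401.14) from 35199381 to 35202007 on the - strand, and *Lta* (ENSMUSG00000024402.5) from 35203165 to 35205351 on the - strand. Between the gene bodies are 3.06 kb from *Ltb* to *Tnf* and 1.16 kb from *Tnf* to *Lta*, with no other annotated gene in either gap. The sequences before their starts are shown because the levels of these 3 neighbors differed widely in the same libraries. They are from RefSeq (GRCm38.p6) and run 5′ to 3′ on the strand of each gene, with motif matches in capitals. The window of *Ltb* is shorter because GENCODE places the start of this gene 68 bases before that of RefSeq.
Ltb, chr17:35194257-35194438, + strand: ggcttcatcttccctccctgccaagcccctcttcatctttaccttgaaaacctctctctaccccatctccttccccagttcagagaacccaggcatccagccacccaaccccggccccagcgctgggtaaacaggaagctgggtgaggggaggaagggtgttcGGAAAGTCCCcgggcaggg
Tnf, chr17:35202008-35202257, - strand: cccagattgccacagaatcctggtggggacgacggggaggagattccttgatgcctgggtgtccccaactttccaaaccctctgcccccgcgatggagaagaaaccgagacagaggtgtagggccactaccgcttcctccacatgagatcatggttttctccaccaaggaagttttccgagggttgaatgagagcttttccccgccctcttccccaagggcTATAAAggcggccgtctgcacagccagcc
Lta, chr17:35205352-35205601, - strand: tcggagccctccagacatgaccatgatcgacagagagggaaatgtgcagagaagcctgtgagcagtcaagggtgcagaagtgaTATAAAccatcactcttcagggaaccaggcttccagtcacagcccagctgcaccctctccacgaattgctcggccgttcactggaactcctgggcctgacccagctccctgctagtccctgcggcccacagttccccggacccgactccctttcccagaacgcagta

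The motifs were the NF-κB consensus, the AP-1 motif TGANTCA and the TATA box TATAAA, each searched on both strands in the 250 bases before every RefSeq start. The capitals of *Ltb* mark an NF-κB consensus on the - strand, 87 to 78 bases before the RefSeq start. Of all 32851 such windows, 3.90% hold this consensus. The capitals of *Tnf* mark TATAAA 29 to 24 bases before the start, and those of *Lta* mark TATAAA 167 to 162 bases before it. TATAAA occurs in 12.4% of all windows and TGANTCA in 6.75%, and the windows of the other 6 genes hold none of the 3 motifs. A match is a description of letters, and its absence from this window says nothing about the factor.

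Values are FPKM, the authors' count of mapped fragments scaled to exon length and to the size of the library, and differences are 7KC-IMQ minus Cont-IMQ on the log2(FPKM + 1) scale, which understates the change of genes with low FPKM. Depth was estimated from the steps of low FPKM values as 15080000 to 16380000 reads per library. Median ratio factors of the FPKM were 1.0005 to 1.0019, so the values may already be scaled between libraries, and this depth with them. Groups were compared by limma over all 15896 genes whose mean reached 0.1 FPKM. One gene passed an adjusted p-value of 0.05 (0.00629% of those tested), and it was none of the 9. With 2 libraries a group, the smallest p-value of an exact permutation test is 0.333.

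No member passed the adjusted threshold (adjusted p = 0.356 to 1.000 in limma), and 2 of the 9, *Tnf* and *Ltbr*, had an unadjusted p-value under 0.05 with a higher level in the 7KC-IMQ group, against 7.5% of all genes tested. In 3 of the 9 genes (*Tnf*, *Tnfrsf1a* and *Ltbr*) each 7KC-IMQ library exceeded each Cont-IMQ library, as in 23.9% of all genes tested, and in no member did both lie below, as in 22.9% of all genes. The median difference of the 9 genes was 0.12, and that of all genes tested was -0.01. This median is the value of *Lta*, the member with the fewest reads. With genes of a mean of at least 1 FPKM only, which leaves out *Lta*, the median of the members was 0.14. The 3 separated genes were 6 without Cont-IMQ replicate 1 and 5 without either 7KC-IMQ library, where all genes also separate more often (38.5%, 35.8% and 33.3%). The median of the 9 was 0.25 without Cont-IMQ replicate 1 (again the value of *Lta*) and 0.05 without Cont-IMQ replicate 2 (the value of *Tnfrsf1b*).

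**Figure D1:**
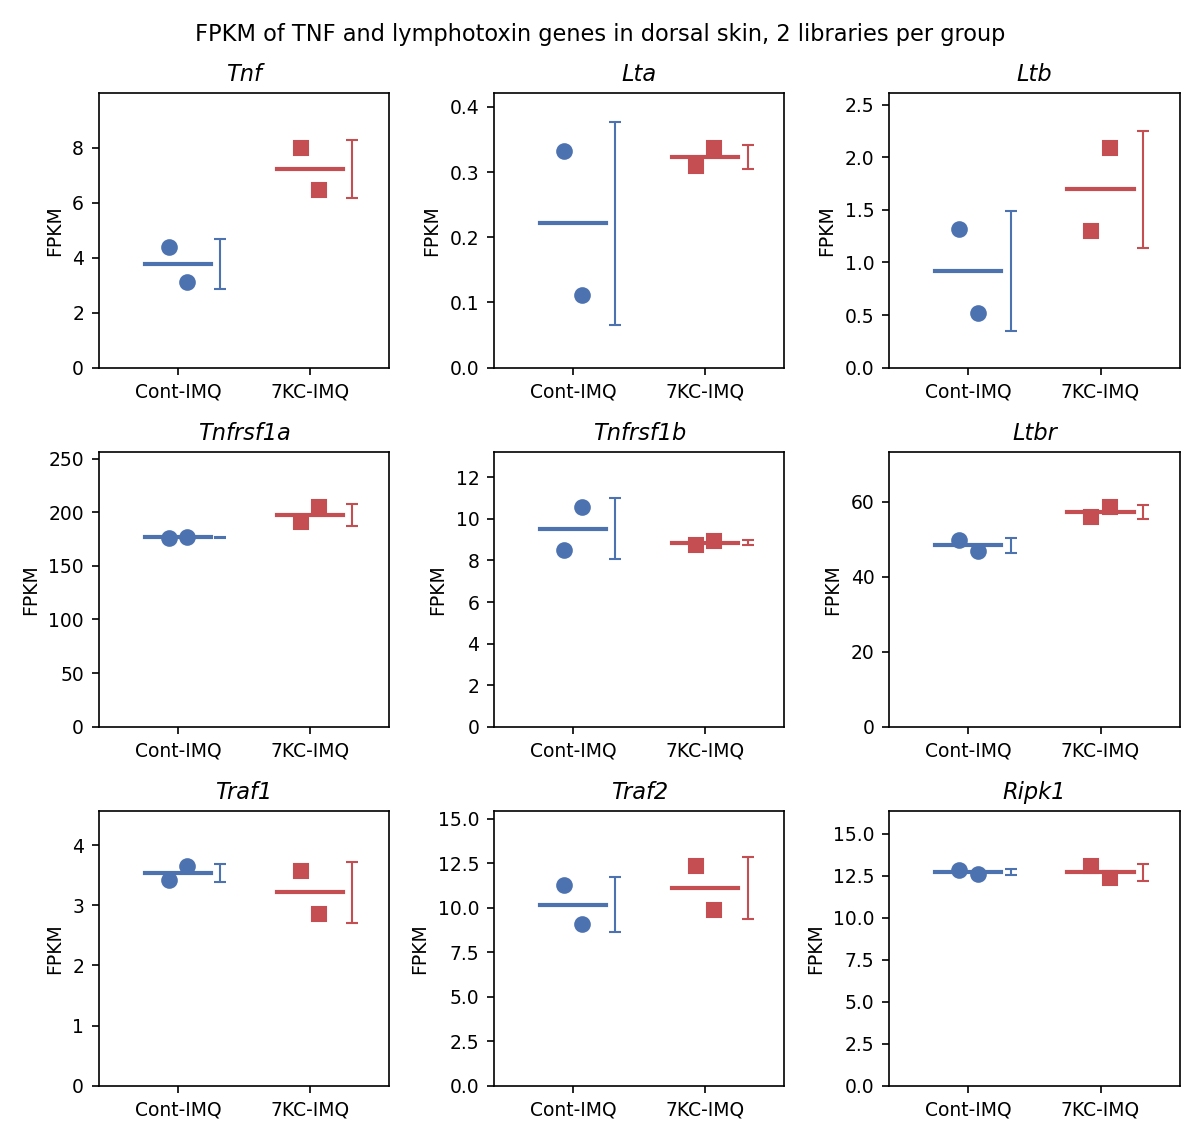
FPKM (vertical axes, each from 0) of the 9 genes in the 2 Cont-IMQ libraries (circles) and the 2 7KC-IMQ libraries (squares), with the mean of each group as a line and the SD as a bar beside it (n = 2). The groups are apart in *Tnf*, *Tnfrsf1a* and *Ltbr* and overlap in the other 6 genes.

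Among the ligands, *Tnf* was the most abundant, and it had the largest difference of the 9 genes on the log2(FPKM + 1) scale. With 0.1 added to the FPKM instead, the difference was 0.93 for *Tnf* and 0.90 for *Ltb*, so this rank depends on the scale. *Tnf* stood at 4.40 and 3.13 FPKM in replicates 1 and 2 of Cont-IMQ and at 7.98 and 6.47 FPKM in those of 7KC-IMQ. Both 7KC-IMQ libraries were higher than both Cont-IMQ libraries, and the gap between the groups (2.07 FPKM) exceeded the distance between replicates in either group (1.27 and 1.51 FPKM). The group means were 3.77 ± 0.899 and 7.22 ± 1.07 FPKM (SD, n = 2), a ratio of 1.92. These values correspond to about 97, 68, 188 and 140 reads in the same order. By PCR of dorsal skin, with more samples per group, the study itself reported a significantly higher *Tnf* level in the 7KC-IMQ group. Whether the PCR samples and the libraries come from the same mice is not given in the sources used here. The difference on the log2(FPKM + 1) scale was 0.79 (standard error 0.18, 95% interval 0.32 to 1.27, unadjusted p = 0.00866, adjusted p = 0.356 in limma). Leaving out 1 library at a time gave 0.60 to 0.99, and the unadjusted p was 0.0642 in limma without 7KC-IMQ replicate 1.

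*Ltb*, the membrane-bound partner of lymphotoxin-α, had 1.32 and 0.519 FPKM in Cont-IMQ skin, against 1.30 and 2.08 FPKM in 7KC-IMQ skin. Cont-IMQ replicate 1 and 7KC-IMQ replicate 1 were nearly equal, so the groups overlapped, and only the lowest and the highest library separated the means of 0.920 ± 0.567 and 1.69 ± 0.552 FPKM (SD, n = 2). The difference was 0.51 (95% interval -0.19 to 1.20, adjusted p = 0.495 in limma), and it was 0.20 without Cont-IMQ replicate 2, 0.29 without 7KC-IMQ replicate 2, 0.81 without Cont-IMQ replicate 1 and 0.72 without 7KC-IMQ replicate 1. With about 19, 8, 21 and 30 reads, counting error alone is large for this gene.

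*Lta* was the rarest member. Its values were 0.332 and 0.112 FPKM in Cont-IMQ skin, against 0.310 and 0.336 FPKM in 7KC-IMQ skin, which correspond to 6, 2, 6 and 6 reads. Both 7KC-IMQ libraries and Cont-IMQ replicate 1 were therefore alike, and the remaining one, Cont-IMQ replicate 2, was under the 3 reads taken as the floor. The difference of 0.12 (95% interval -0.22 to 0.46, adjusted p = 0.726 in limma) rested on that library and was -0.01 without it. A difference between the diets in *Lta* was not detectable at this depth. MicroRNA genes (*Mir6974* and *Mir6973a*) are annotated within *Lta* and *Ltb* on the same strand.

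**Figure D2:**
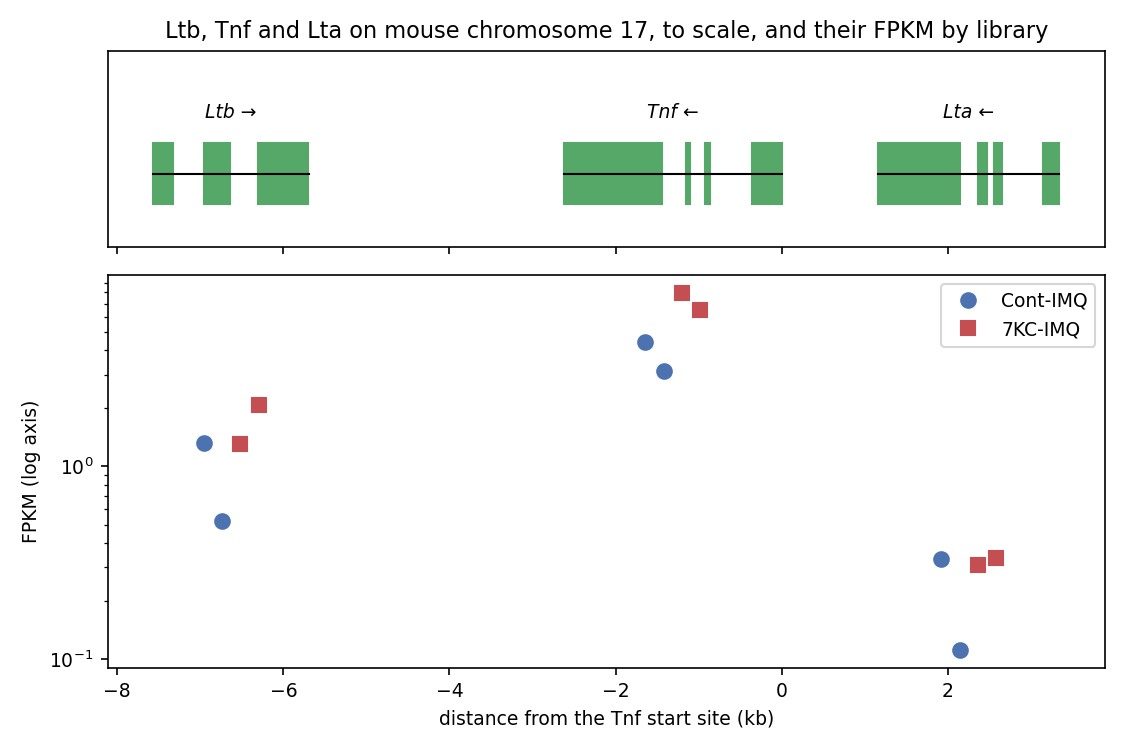
Map of *Ltb*, *Tnf* and *Lta* on chromosome 17 with exons as boxes and arrows for the strand (horizontal axis, distance from the *Tnf* start in kb), above the FPKM of each gene in the 4 libraries (log axis). *Tnf* lies between its neighbors and above them in every library, and the 2 groups are apart only in *Tnf*.

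*Tnf* made up 72.7% and 83.2% of the summed FPKM of the 3 ligands in the Cont-IMQ libraries and 83.2% and 72.8% in the 7KC-IMQ libraries. The share of *Tnf* was therefore alike in both groups while the sum was 6.05 and 3.76 against 9.59 and 8.89 FPKM. The *Ltb* to *Tnf* ratio within a library was 0.3001 and 0.166 in the Cont-IMQ group and 0.163 and 0.322 in the 7KC-IMQ group (difference of the log2 ratio 0.04, two-sided exact permutation test, p = 1). The sign of this difference depended on the library left out.

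Among the receptors, *Tnfrsf1a* and *Ltbr* were abundant and *Tnfrsf1b* was not. *Tnfrsf1a* (ENSMUSG00000030341.17) is on chromosome 6 from 125349362 to 125362484 (+ strand), and *Ltbr* (ENSMUSG00000030339.7) is on the same chromosome from 125306571 to 125313885 (- strand), 35.48 kb apart with *Scnn1a* between them. *Tnfrsf1b* (ENSMUSG00000028599.10) is on chromosome 4 from 145213463 to 145246870 (- strand).

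*Ltbr* had 49.8 and 46.9 FPKM in Cont-IMQ skin, against 55.8 and 58.5 FPKM in 7KC-IMQ skin. The gap between the groups was 6.05 FPKM, against 2.90 and 2.62 FPKM between replicates. The means were 48.3 ± 2.05 and 57.2 ± 1.85 FPKM (SD, n = 2), 18.2% apart. The difference was 0.24 (standard error 0.07, 95% interval 0.04 to 0.43, unadjusted p = 0.0279, adjusted p = 0.365 in limma). Rescaling each library to the same FPKM sum moved the median of all genes tested to -0.07. With this scaling, the groups of *Ltbr* stayed apart with a difference of 0.16 and an unadjusted p of 0.0891 in limma. The unadjusted p also exceeded 0.05 without the variance trend (0.0519), with the replicate number as a block (0.0592), and without Cont-IMQ replicate 2 (0.0819), 7KC-IMQ replicate 1 (0.0792) or 7KC-IMQ replicate 2 (0.144).

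*Tnfrsf1a* had 176 and 177 FPKM in Cont-IMQ skin, against 191 and 205 FPKM in 7KC-IMQ skin. The Cont-IMQ libraries were within 0.458 FPKM of each other, while the 7KC-IMQ libraries were 14.1 FPKM apart, about as far as the gap of 13.8 FPKM between the groups. The means differed by 11.9%, a difference of 0.16 (95% interval -0.04 to 0.36, unadjusted p = 0.0947, adjusted p = 0.459 in limma). It was 0.08 with the same FPKM sum (unadjusted p = 0.338 in limma) and 0.05 with quantile normalization (unadjusted p = 0.562 in limma). The median of all genes tested was -0.07 with the same FPKM sum and -0.004 with quantile normalization.

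*Tnfrsf1b* had 8.498 and 10.6 FPKM in Cont-IMQ skin, against 8.77 and 8.95 FPKM in 7KC-IMQ skin. Both 7KC-IMQ libraries lay between the Cont-IMQ libraries, and the difference of -0.09 (95% interval -0.42 to 0.25, adjusted p = 0.800 in limma) turned to 0.05 without Cont-IMQ replicate 2. *Tnfrsf1a* made up 74.7% to 75.5% of the summed FPKM of the 3 receptors in the 4 libraries, *Ltbr* 20.02% to 21.9% and *Tnfrsf1b* 3.29% to 4.51%. TNFR1 transcripts thus exceeded TNFR2 transcripts 20.7- and 16.7-fold in the Cont-IMQ libraries and 21.7- and 22.9-fold in the 7KC-IMQ libraries. The *Tnfrsf1b* to *Tnfrsf1a* ratio, which does not depend on scaling between libraries, was lower in both 7KC-IMQ libraries (difference of the log2 ratio -0.26, two-sided exact permutation test, p = 0.333, the smallest that this design allows), and it was -0.10 without Cont-IMQ replicate 2.

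The 3 receptor-bound proteins showed no separation of the groups. *Ripk1* (ENSMUSG00000021408.15, chromosome 13, 34002363 to 34037147, + strand) encodes the kinase that carries the TNFR1 signal to NF-κB or, through RIPK3 and MLKL, to necroptosis. It had 12.8 and 12.6 FPKM in Cont-IMQ skin, against 13.1 and 12.4 FPKM in 7KC-IMQ skin. The 7KC-IMQ libraries enclosed the Cont-IMQ libraries, and the difference was 7.1e-05 (95% interval -0.22 to 0.22, adjusted p = 1.000 in limma). *Serpinb6a* overlaps *Ripk1* on the opposite strand, and the libraries were made with a stranded kit, but whether reads were assigned by strand is not given in the sources used here.

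*Traf2* (ENSMUSG00000026942.13, chromosome 2, 25517982 to 25546940, - strand) encodes the ubiquitin ligase adaptor of both TNF receptors. It had 11.3 and 9.09 FPKM in Cont-IMQ skin, against 12.3 and 9.87 FPKM in 7KC-IMQ skin. The replicates of each group differed by more than the group means of 10.2 ± 1.54 and 11.1 ± 1.74 FPKM (SD, n = 2), and the difference was 0.11 (95% interval -0.30 to 0.53, adjusted p = 0.794 in limma).

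*Traf1* (ENSMUSG00000026875.14, chromosome 2, 34941750 to 34961772, - strand) encodes an adaptor that binds TRAF2 and is itself induced by NF-κB in many cells. It had 3.43 and 3.65 FPKM in Cont-IMQ skin, against 3.58 and 2.86 FPKM in 7KC-IMQ skin. Only 7KC-IMQ replicate 2 lay below the others. The difference was -0.11 (95% interval -0.46 to 0.23, adjusted p = 0.753 in limma), and it was 0.01 without that library.

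**Figure D3:**
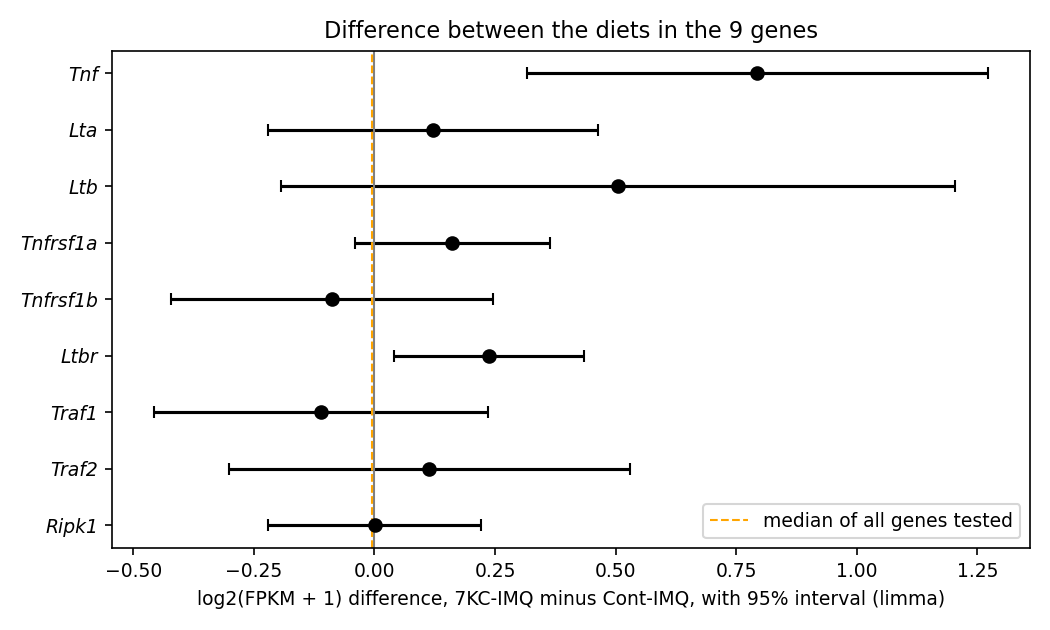
Difference in log2(FPKM + 1), 7KC-IMQ minus Cont-IMQ, of the 9 genes (points) with the 95% interval of limma (bars, not adjusted over genes), a grey line at 0 and a dashed orange line at the median of all genes tested (-0.01). The intervals of *Tnf* (0.32 to 1.27) and *Ltbr* (0.04 to 0.43) lie above 0, and the other 7 include it.

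In order of FPKM, which is scaled to gene length, the mean levels over the 4 libraries were 187 for *Tnfrsf1a*, 52.7 for *Ltbr*, 12.7 for *Ripk1*, 10.6 for *Traf2*, 9.19 for *Tnfrsf1b*, 5.49 for *Tnf*, 3.38 for *Traf1*, 1.31 for *Ltb* and 0.273 for *Lta*. *Traf2* overlapped *Tnfrsf1b*, and *Tnf* overlapped *Traf1*, over the 4 libraries, while each of the other neighbors in this order was separate. *Tnfrsf1a* was exceeded by 3.04% of the genes tested and *Lta* by 93.0%. The sum of the 3 receptors exceeded that of the 3 ligands 38.7- and 62.3-fold in the Cont-IMQ libraries and 26.6- and 30.6-fold in the 7KC-IMQ libraries.

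Markers of several cell types differed between these groups without overlap, and their part in the results was not tested. Among all genes tested, 23.9% were higher and 22.9% lower without overlap. Counts of separated genes in such short lists therefore say little by themselves. In whole skin, more cells of a type and more RNA per cell cannot be told apart. Keratinocyte markers summed to between 14631 and 21939 FPKM, so the skin label holds. Skeletal muscle markers summed to 6229 and 6203 against 4993 and 5979 FPKM, with 2 genes higher (*Ckm* and *Myh4*) and 2 lower (*Acta1* and *Myh1*) without overlap. The macrophage and monocyte list (8 genes) summed to 386 and 427 FPKM in Cont-IMQ skin, against 354 and 355 FPKM in 7KC-IMQ skin, with 1 gene higher and 3 lower without overlap. The neutrophil list (7 genes, 6 tested) summed to 18.9 and 21.9 against 29.2 and 32.0 FPKM, mostly *Cxcr2*. That gene had 13.4 and 15.0 against 20.2 and 23.0 FPKM. In this list, *Elane* overlapped and 5 genes were higher without overlap. These 5 include the rare *Camp* and *Mmp8*, with means of 0.412 and 0.934 FPKM over the libraries. The granule genes *Mpo*, *Elane* and *Camp* of this list were each listed at 0 in at least 1 library. The T cell list summed to 81.7 and 72.7 against 92.7 and 95.03 FPKM, mostly *Thy1*, which fibroblasts and other cells express as well. The T cell receptor gene *Cd3e* had 3.76 and 3.05 against 2.47 and 2.36 FPKM, and *Cd3g* had 10.1 and 9.61 against 7.62 and 5.59 FPKM, below the Cont-IMQ libraries in both. *Cd3d* was slightly higher instead, with 1.45 and 1.46 against 1.57 and 1.47 FPKM. In the whole T cell list, 2 genes were higher and 2 lower without overlap. Endothelial markers summed to 50.002 and 54.9 against 42.2 and 40.1 FPKM, and mast cell markers to 106 and 105 against 87.1 and 91.6 FPKM. Of the B cell markers, *Ms4a1* and *Pax5* were listed at 0 in all 4 libraries. Hair follicle markers set Cont-IMQ replicate 2 apart, with 1066 FPKM against 81.6, 301 and 263 FPKM in Cont-IMQ replicate 1 and the 7KC-IMQ libraries.

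The rest of the pathway was described by 7 lists of 131 genes in all, of which 124 were tested. None passed the adjusted threshold in limma (smallest adjusted p = 0.331), 27 had an unadjusted p under 0.05 with a higher level and 4 with a lower level in the 7KC-IMQ group, and 42 were higher and 13 lower without overlap (33.9% and 10.5%). Over all 15896 genes tested, 2061 had an unadjusted p under 0.05 in limma, and 1192 of these had a higher level (7.5% of all genes). The shares without overlap were 23.9% higher and 22.9% lower. The median difference of the 124 genes was 0.05.

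Genes that TNF induces in many cells were the list with the highest median. Of its 40 genes, all tested, 20 were higher and 3 lower without overlap (50% and 7.5%, against 23.9% and 22.9% of all genes), and the median difference was 0.28. Some of them (*Il6*, *Csf2*, *Cxcl1*, *Cxcl2*, *Cxcl3* and *Sele*) are shown in the heatmap of the study, which measured others by PCR as well (*Il1b* and *Ccl2* among them), and the count therefore does not stand as independent evidence of a direction. Without the 6 genes of the heatmap, 14 of 34 were higher (41.2%) and 3 lower without overlap, with a median difference of 0.16. These 34 still include *Il1b* and *Ccl2*. Other inducers act on many genes of the list. *Cxcl3*, a neutrophil chemokine, had 2.33 and 2.60 FPKM in Cont-IMQ skin, against 7.22 and 10.5 FPKM in 7KC-IMQ skin (difference 1.49, adjusted p = 0.331 in limma). *Il6* had 1.78 and 2.54 against 5.40 and 12.5 FPKM (difference 1.57, adjusted p = 0.356 in limma). *Fos*, an immediate early transcription factor, lay the other way, with 496 and 546 against 97.4 and 277 FPKM (difference -1.66, adjusted p = 0.360 in limma). *Il6* and *Fos* varied widely between the 7KC-IMQ replicates. *Nfkbia*, the inhibitor of NF-κB, had 225 and 274 against 238 and 303 FPKM and overlapped.

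In the list of the receptor complex, its ubiquitin ligases and the death branch, 8 of 28 genes were higher and 4 lower without overlap (28.6% and 14.3%, against 23.9% and 22.9% of all genes), with a median difference of 0.00. The 3 largest separated differences were in *Ripk3*, *Mlkl* and *Birc3*. *Ripk3*, the partner kinase of RIPK1 in necroptosis, had 8.29 and 9.01 FPKM in Cont-IMQ skin, against 13.7 and 13.5 FPKM in 7KC-IMQ skin (difference 0.60, standard error 0.09, unadjusted p = 0.00159, adjusted p = 0.352 in limma). *Mlkl*, the membrane effector that RIPK3 phosphorylates, had 10.9 and 8.03 against 12.7 and 13.2 FPKM (difference 0.42, adjusted p = 0.380 in limma). *Birc3*, which encodes the ubiquitin ligase cIAP2, had 27.8 and 25.3 against 31.9 and 34.8 FPKM (difference 0.32, adjusted p = 0.356 in limma). These 3 genes were picked for levels that do not overlap between the groups, so this is no contrast with *Ripk1*. Of the 28 genes in the list, 16 overlapped. *Casp8*, the protease that cleaves RIPK1, had 18.3 and 19.1 against 19.03 and 18.5 FPKM and overlapped, as did *Fadd*. *Tnfaip3*, which encodes the ubiquitin-editing enzyme A20, had 13.4 and 28.5 against 18.1 and 24.6 FPKM and overlapped.

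Among the genes of TNF shedding and mRNA control, 3 of 10 were higher and 2 lower without overlap (30% and 20%, against 23.9% and 22.9% of all genes), with a median difference of 0.02. *Adam17*, the shedding protease, had 30.7 and 28.9 against 29.6 and 31.2 FPKM and overlapped. *Rhbdf2*, which carries ADAM17 to the cell surface, had 23.9 and 24.2 against 28.1 and 27.8 FPKM (difference 0.21, adjusted p = 0.366 in limma). The 2 RNA-binding proteins with the largest differences lay in opposite directions. *Zc3h12a*, which encodes the RNase Regnase-1, had 93.6 and 82.4 against 126 and 160 FPKM (difference 0.68, adjusted p = 0.352 in limma). *Zfp36*, which encodes tristetraprolin and promotes decay of the TNF mRNA, had 269 and 244 against 161 and 215 FPKM (difference -0.46, adjusted p = 0.372 in limma).

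Of the 11 genes tested for the lymphotoxin-β receptor and the noncanonical NF-κB pathway, 5 were higher and 1 lower without overlap (45.5% and 9.09%, against 23.9% and 22.9% of all genes), and the median difference was -0.01. *Ccl19*, a chemokine for T cells and dendritic cells, had 80.1 and 61.7 against 147 and 123 FPKM (difference 0.92, adjusted p = 0.352 in limma). *Ccl21a*, which shares the receptor CCR7 with it, had 71.4 and 60.8 against 48.5 and 52.7 FPKM (difference -0.37, adjusted p = 0.356 in limma), although reads of near-identical *Ccl21* copies may be exchanged with it. *Tnfrsf14*, the receptor HVEM that also binds lymphotoxin-α, had 3.71 and 2.79 against 4.72 and 4.64 FPKM (difference 0.43, adjusted p = 0.366 in limma). *Cxcl13* and *Relb* overlapped between the groups.

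**Figure D4:**
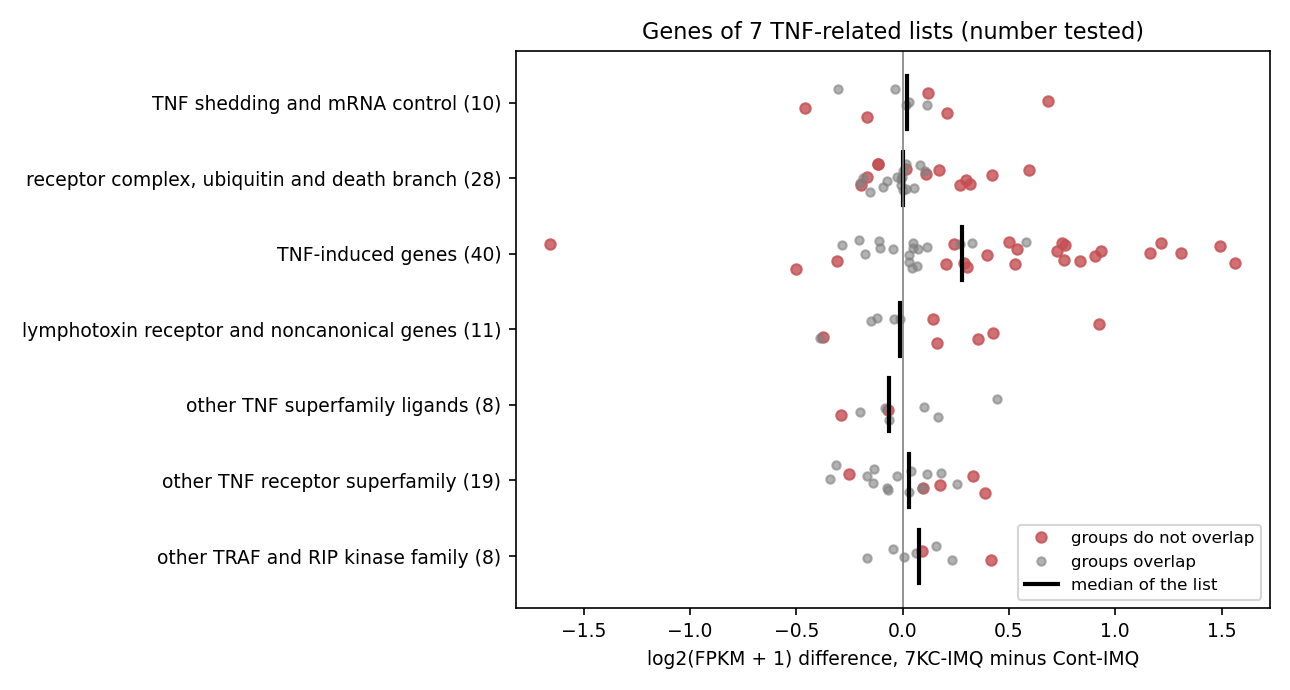
Difference in log2(FPKM + 1), 7KC-IMQ minus Cont-IMQ (horizontal axis), of each gene tested in the 7 lists, with genes whose groups do not overlap in red and the median of each list as a bar (number tested in parentheses). The TNF-induced list has its median at 0.28, and the medians of the other 6 lie between -0.06 and 0.08.

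The wider ligand, receptor and adaptor families had medians near 0, and the shares of all genes tested remain 23.9% higher and 22.9% lower without overlap. Of 8 other TNF superfamily ligands tested, none was higher and 2 were lower without overlap (25%), with a median difference of -0.06. *Tnfsf10*, the death ligand TRAIL, had 3.24 and 2.62 against 2.23 and 2.18 FPKM (difference -0.29, adjusted p = 0.433 in limma). Of 19 other TNF receptor family genes tested, 4 were higher and 1 lower without overlap (21.1% and 5.26%), with a median of 0.03. The costimulatory receptor OX40 (*Tnfrsf4*) had 6.25 and 6.59 against 9.63 and 7.18 FPKM (difference 0.33), and GITR (*Tnfrsf18*) had 38.9 and 40.1 against 47.2 and 42.4 FPKM (difference 0.18). *Eda2r*, a receptor for ectodysplasin, had 5.29 and 5.06 against 4.80 and 3.63 FPKM (difference -0.25). The adjusted p-values of these 3 genes were between 0.453 and 0.524 in limma. Among 8 other TRAF and RIP kinase genes, 2 were higher and none lower without overlap (25%), with a median of 0.08. They were *Traip*, an E3 ligase of DNA replication, with 2.65 and 2.97 against 4.55 and 3.67 FPKM (difference 0.42, adjusted p = 0.365 in limma), and *Traf7*, with 40.8 and 41.0 against 44.1 and 43.2 FPKM (difference 0.09, adjusted p = 0.611 in limma).

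The pattern over the 4 libraries was compared with that of 13109 other genes whose mean reached 1 FPKM, by the root mean square distance of the centred log2(FPKM + 1) values. Nearest to *Tnf* were *Il12b* (0.029), *Ccl19* (0.066), *Prnd* (0.073), *Cyp7b1* (0.074) and *Plaur* (0.078), and 9 genes were within 0.1 of it. *Il12b*, which encodes the p40 subunit of IL-12 and IL-23, had 1.41 and 0.855 FPKM in Cont-IMQ skin, against 2.87 and 2.40 FPKM in 7KC-IMQ skin. *Cyp7b1*, an oxysterol hydroxylase, had 7.22 and 5.69 against 12.1 and 11.4 FPKM. Nearest to *Ltb* were *Il1f6* (0.033), *Endou* (0.046), *Slc16a1* (0.064), *Ttc39a* (0.068) and *Pfkfb4* (0.081), with 16 genes within 0.1. *Il1f6*, which encodes the epidermal cytokine IL-36α, had 168 and 113 against 161 and 224 FPKM. Nearest to *Traf1* were *Fbxo4*, *Cnrip1*, *Pcgf2*, *Leng8* and *Ilk* (0.004 to 0.012), but 2156 genes were within 0.1 of this nearly level pattern. The added 1 shrinks the spread of genes with low FPKM, so a short distance does not mean an equal fold change. *Ltb* ran from 0.519 to 2.08 FPKM over the libraries, and *Il1f6* from 113 to 224 FPKM. All distances rest on 4 libraries with shared scaling and are a description.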

How the data were processed

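RNA sequencing of dorsal skin on Day 1 was analysed in 4 libraries, grouped by their labels. The authors aligned single-end reads of 75 bases (mm10) and deposited FPKM per gene symbol, one file per library. The submitters' processing notes name TopHat2 2.1.1, Bowtie2 2.2.8, SAMtools 0.1.18 and Cuffdiff 2.2.1, whereas the paper names other versions and Cufflinks. Gene annotation and the treatment of reads with several positions are not given in the sources used here.

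Since the values are FPKM and not counts, limma 3.58.1 (R 4.3.3) with a variance trend was run on log2(FPKM + 1), in genes whose mean reached 0.1 FPKM, with Benjamini-Hochberg adjustment over all of them. The fit was tested on simulated data. Depth was estimated from genes with a single transcript (effective length, transcript length minus an assumed fragment of 200 bases plus 1), where 66.8% to 71.6% of low genes lay within 0.1 of a whole read against 20% by chance. Reads of members use the longest RefSeq-matched transcript of GENCODE M21 and cover counting error only.

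The members and lists were chosen with earlier results of these data known. Text names every member, per list up to 3 genes with the largest separated difference at a mean of 1 FPKM or more, and the 5 nearest patterns of *Tnf*, *Ltb* and *Traf1*. *Sele*, *Il1b*, *Ccl2*, *Nfkbia*, *Tnfaip3*, *Casp8*, *Fadd*, *Adam17*, *Cxcl13*, *Relb* and the other genes of the study's heatmap were named after their values were seen. Alternatives were another pseudocount, filters, scalings, a fit without the trend, a block for the replicate number, and leaving out each library.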

Additional observations from a re-analysis of the deposited data

How the results depend on the processing

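Under 12 alternatives of the test, no member and none of the 18 pathway genes named by rule passed an adjusted p of 0.05 in limma, and the lowest adjusted p of a member was 0.295 (*Tnf*, without Cont-IMQ replicate 1). Of 107 member values, 97 kept their direction, as did all values of the 18 pathway genes. Median ratio scaling barely differs from the main fit, with factors of 1.0005 to 1.0019. *Tnf*, *Ltb*, *Tnfrsf1a* and *Ltbr* were above 0 in every alternative. *Ripk1* was -0.000479 with median ratio scaling, -0.0758 with the same FPKM sum, -0.00853 with quantile normalization, and -0.0373 to 0.0374 with a library left out. The median of all genes tested was itself -0.0664 with the same FPKM sum. With a pseudocount of 0.1, the difference was 0.485 for *Lta* and 0.901 for *Ltb*, against 0.121 and 0.505 in the main fit. Leaving out each library gave -0.00927 to 0.251 for *Lta*, -0.229 to 0.0539 for *Tnfrsf1b*, -0.235 to 0.0124 for *Traf1* and -0.0336 to 0.261 for *Traf2*. It gave 0.0539 to 0.251 for the median of the members, and the *Ltb* to *Tnf* log2 ratio ranged from -0.449 to 0.531 (-0.0330 with a pseudocount of 0.1). Genes past the threshold numbered 2 with a pseudocount of 0.1, and 1 to 9 with a library left out, the 9 without Cont-IMQ replicate 1 and the 5 without Cont-IMQ replicate 2. The unadjusted p of *Tnf* ranged from 0.00772 to 0.0642 with a library left out (0.0642 without 7KC-IMQ replicate 1) and that of *Ltbr* from 0.0334 to 0.144. Counts without overlap in 3 libraries, chosen after seeing the data, were 4 to 6 of the 9 members (3 in all 4 libraries), against 33.3% to 38.8% of all genes, and 23 to 27 of 40 TNF-induced genes (20 in all 4 libraries). The 4 were without Cont-IMQ replicate 2 and the 6 without Cont-IMQ replicate 1. A group of 1 library separates more easily by construction, and its lone library is assumed to vary like the other group.

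Replicate numbers are shared by the groups, but nothing in the labels or the paper ties them to a litter or day, and same-numbered libraries deviated together only weakly (r = 0.0776 over 13110 genes). With the replicate number as a block, 0 members, 0 pathway genes and 1 gene in all passed, the median of the members was 0.12, and no call at the adjusted threshold changed, but the unadjusted p of *Ltbr* was 0.0592.

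Depth limits *Lta* (2 to 6 reads) and *Ltb* (8 to 30 reads) most. *Lta* has no value where the filter is a mean of 1 FPKM.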
